A study of Mus musculus with 8 samples.

Results

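PIWI-interacting RNAs (piRNAs) were counted at 50 loci that lie over named genes and yield few piRNAs in the wild-type mouse testis. The tables cover 208 piRNA loci, 114 with a gene in their name, such as pi-Ing5.1, and 94 named by chromosome band. A gene-named locus was taken if its mean small RNA level in the 2 Exd2+/+ libraries was below 50 CPM, where CPM are counts of a locus per 1000000 counts at the 208 loci in that library; 59 loci met this condition. Of a list of 12 gene-named loci left out by name with their results known, 9 fell below that level and 3 above it, which leaves 50. The highest levels inside the threshold were those of pi-Atxn1l.1 (46.6), pi-Tfcp2l1.1 (35.0) and pi-Smcr8.3 (34.1). The lowest outside it were those of pi-Cramp1l.1 (53.2), pi-D10Wsu102e.2 (53.6) and pi-Fth1.1 (54). The threshold thus read the small RNA levels of the Exd2+/+ libraries, and the names left out were picked with results of both assays known. Every comparison of small RNA between the genotypes shares those libraries with the choice and is given as a description. In such a description, "called" means an adjusted p below 0.05 in an edgeR quasi-likelihood fit over all 208 loci, and no p is printed for it.

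The series compared adult Exd2∆ mice with adult Exd2+/+ mice, with 2 replicates of each genotype that the submitters' design text calls biological. Exd2∆ mice were made on a C57BL6 background by editing single embryos with Cas9 and guide RNA, which removed the end of exon 2 of Exd2 and part of the intron that follows it; the labels do not say how many founder lines were used. RNA of testes was sequenced as small RNA cut from a gel, which holds the mature piRNAs, and as long RNA depleted of ribosomal RNA, which holds piRNA precursors and mRNA alike, giving 8 libraries. Total small RNA counts were 28408830 and 33983711 in the Exd2∆ libraries, against 29039671 and 37660202 in the Exd2+/+ libraries. Total long RNA counts were 960909 and 1638327 in the Exd2∆ libraries, against 1406947 and 1842625 in the Exd2+/+ libraries. The 50 loci were thinly covered in small RNA, where the median locus had 332 to 447 counts in a library and the least covered 86.8 to 144. In long RNA the median locus had 1059 to 2011 counts and the least covered 62.1 to 124. A count of 86.8 has a counting error of 10.7% and one of 62.1 an error of 12.7%. Only the 208 loci are in these tables, so neither Exd2 itself nor markers of testis cell types were analysed here. In RNA of a whole tissue, fewer cells of a type and less RNA per cell cannot be told apart.

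In male germ cells PIWI proteins bind piRNAs, which guide them to transposon RNA and other targets. A long precursor transcript is exported from the nucleus and cut into piRNAs at the mitochondrial surface and in germ granules, among them the intermitochondrial cement of spermatocytes. Some precursors are long noncoding RNAs made at the pachytene stage of meiosis. Others are mRNAs, many of them processed before pachytene and often from the 3′ untranslated region, so that a gene-named locus can yield both a protein and piRNAs. Long RNA counted at such a locus cannot be split into mRNA and piRNA precursor.

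All 50 loci overlap a protein-coding gene on their own strand (GRCm38, GENCODE M21), 46 by the symbol in the name and 4 by an older symbol. The 4 are pi-Ccrn4l.1 over Noct, pi-Mcart1.2 over Slc25a51, pi-D730040F13Rik.1 over Tmem245 and pi-March08.1 over March8. Of the 64 other gene-named loci, 62 lie over a protein-coding gene. The 50 are spread over 19 chromosomes, 24 on the plus and 26 on the minus strand. They span 1.26 kb (pi-Rplp1.1) to 599 kb (pi-Lpp.1), with a median of 43.1 kb, and hold a median of 7.64 kb of annotated exon. At 43 of the 50 the noncoding exon length exceeds the coding length, with medians of 5.47 and 1.81 kb. The 63 other gene-named loci that matched a gene had a median of 7.21 kb of exon.

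Promoters were read for loci with large small RNA differences between the genotypes, since long RNA gave no called locus among the 50. RefSeq's table of start sites (GRCm38.p6, 250 bases before to 50 after the start) held 36 of the 50 host genes, and at 23 of them the start lay within 50 bases of the locus start. The table holds no entry for pi-March08.1, pi-Rab11fip4.2, pi-Hinfp.1 and pi-Ndst1.1, which each differed more than some of the loci shown. The 3 loci of these 36 with the largest positive and the 3 with the largest negative log2 fold change in small RNA are shown 5′ to 3′ on the strand of the gene, with capitals marking the motifs, which were searched on both strands and do not overlap in these windows. The motifs were CAACTG, a core site of the MYB family, next CCAAT, the box bound by NF-Y, then CACGTG, an E-box for bHLH factors, and last TATAAA, the TATA box. The first 3 are those that stood higher in Exd2∆, at chr1:93803715-93804014 (plus strand), chr19:44562604-44562903 (plus) and chr8:104395758-104396057 (minus).
pi-Ing5.1: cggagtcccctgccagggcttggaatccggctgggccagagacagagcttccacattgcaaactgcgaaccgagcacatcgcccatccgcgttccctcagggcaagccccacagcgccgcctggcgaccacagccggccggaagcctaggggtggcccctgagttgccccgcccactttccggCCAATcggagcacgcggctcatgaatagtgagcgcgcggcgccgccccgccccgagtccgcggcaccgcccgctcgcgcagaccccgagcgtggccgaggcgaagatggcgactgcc
pi-Hif1an.1: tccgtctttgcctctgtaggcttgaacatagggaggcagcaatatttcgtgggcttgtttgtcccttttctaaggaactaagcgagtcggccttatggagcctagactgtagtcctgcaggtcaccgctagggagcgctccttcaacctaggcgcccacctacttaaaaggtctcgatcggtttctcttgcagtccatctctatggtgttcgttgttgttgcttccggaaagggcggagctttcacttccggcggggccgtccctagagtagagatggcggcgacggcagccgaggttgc
pi-Cmtm4.1: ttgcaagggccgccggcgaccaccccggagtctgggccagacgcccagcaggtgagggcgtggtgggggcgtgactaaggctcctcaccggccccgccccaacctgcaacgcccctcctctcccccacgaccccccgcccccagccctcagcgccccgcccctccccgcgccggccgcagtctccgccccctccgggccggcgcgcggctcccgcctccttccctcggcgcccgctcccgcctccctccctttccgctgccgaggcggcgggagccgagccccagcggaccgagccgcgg
The next 3 are those that stood lower in Exd2∆, at chr6:85502945-85503244 (minus), chr15:81802423-81802722 (plus) and chr10:42276646-42276945 (minus).
pi-Fbxo41.2: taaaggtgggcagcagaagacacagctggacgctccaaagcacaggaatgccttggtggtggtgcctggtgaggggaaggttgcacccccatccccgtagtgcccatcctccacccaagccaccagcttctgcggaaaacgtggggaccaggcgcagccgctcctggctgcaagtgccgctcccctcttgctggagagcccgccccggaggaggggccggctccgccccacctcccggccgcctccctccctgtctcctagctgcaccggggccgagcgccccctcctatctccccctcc
pi-Tef.1: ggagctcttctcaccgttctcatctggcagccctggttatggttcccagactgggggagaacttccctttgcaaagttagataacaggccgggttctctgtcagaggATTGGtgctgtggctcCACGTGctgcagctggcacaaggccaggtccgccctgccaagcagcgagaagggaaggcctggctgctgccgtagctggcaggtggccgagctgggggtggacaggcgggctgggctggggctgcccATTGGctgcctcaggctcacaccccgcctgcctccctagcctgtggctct
pi-Foxo3.2: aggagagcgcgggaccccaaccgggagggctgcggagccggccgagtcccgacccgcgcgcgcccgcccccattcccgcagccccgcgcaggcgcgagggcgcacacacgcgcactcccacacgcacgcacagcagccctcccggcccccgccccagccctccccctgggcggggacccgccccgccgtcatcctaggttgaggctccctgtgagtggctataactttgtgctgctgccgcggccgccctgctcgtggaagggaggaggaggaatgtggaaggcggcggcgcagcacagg
Of these 6, pi-Ing5.1 holds 1 NF-Y box, and pi-Tef.1 holds 2 on the opposite strand, read as ATTGG, and 1 E-box. These motifs were not found in the windows of the other 4. Over the 36 promoters, 17 (47.2%) hold an NF-Y box, against 37.4% of all 32851 promoters of the table. A MYB core is in 6 (16.7%), against 13.7% of all, an E-box in 4 (11%), against 7.15%, and a TATA box in 2 (5.56%), against 13.6%. The 48 promoters of other gene-named loci in the table held an NF-Y box in 41.7%, a MYB core in 16.7%, an E-box in 12.5% and a TATA box in 4.17%. The median GC content of the 36 was 66.0%, against 52.7% over all promoters. No median was taken for the 48 other gene-named promoters, so nothing particular to the 50 loci is read from it.

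The levels of small and long RNA in Exd2+/+ varied widely among the 50 loci. Whether counts cover the whole span of a locus or its exons alone is not given in the sources used here. Levels per kb, and their order, rest on the annotated exon length. Per kb of annotated exon, where CPM are from here on scaled by the trimmed mean of M-values (TMM), long RNA in Exd2+/+ ran from 10.2 CPM per kb at pi-Fbxo41.2 to 6898 at pi-Rplp1.1, with a median of 147. Rplp1 encodes a protein of the large ribosomal subunit, and its locus was the shortest of the 50, with 0.497 kb of exon. The next highest were pi-Lpp.1 (533), over a gene for an adhesion protein of the LIM family, pi-Atxn1l.1 (471) and pi-Eya3.1 (458). At the low end pi-Shank3.2 (18.9), over the gene for a scaffold protein of synapses, pi-Rcan3.1 (40.5) and pi-Exog.2 (46.3) followed pi-Fbxo41.2. The 63 other gene-named loci had a median of 450 CPM per kb in long RNA, a scale the threshold did not use.

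Small RNA per kb of exon in Exd2+/+ ran from 0.410 CPM per kb at pi-Il17rd.1 to 9.18 at pi-Rplp1.1, with a median of 1.5. Between small and long RNA levels Spearman's rho was 0.16 and Pearson's r 0.20 (log2 CPM, n = 50 loci, which share the same libraries). The threshold capped the small RNA level, which limits such a correlation, so nothing is read from it. As a ratio of CPM within each assay, small RNA per 1000 CPM of long RNA in Exd2+/+ ran from 0.863 at pi-Lpp.1 and 1.29 at pi-Ankrd11.1 to 71.9 at pi-Tfcp2l1.1 and 76.7 at pi-Fbxo41.2. Mean small RNA in Exd2+/+ was 10.1 CPM at pi-Lpp.1, which has the most long RNA of the 50, and 5.12 CPM at pi-Fbxo41.2, which has the least. As small RNA levels chose the loci, this ratio is a description.

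The extremes by level had these values in single libraries. In small RNA the lowest loci in Exd2+/+ were pi-Ssh1.1, with 3.19 and 3.13 CPM in Exd2∆, against 3.52 and 3.90 CPM in Exd2+/+, and pi-Shank3.2, with 3.12 and 4.19 CPM in Exd2∆, against 3.42 and 4.06 CPM in Exd2+/+. Next came pi-Il17rd.1, with 4.16 and 3.77 CPM in Exd2∆, against 4.64 and 4.30 CPM in Exd2+/+, and then pi-Rplp1.1 and pi-Uhrf1bp1.1, the second with 4.56 and 4.70 CPM in Exd2∆, against 4.78 and 4.93 CPM in Exd2+/+. The genotypes overlapped at pi-Shank3.2, and at the other four Exd2∆ was the lower in both libraries. The highest locus was pi-Atxn1l.1, with 59.9 and 67.4 CPM in Exd2∆, against 49.9 and 44.8 CPM in Exd2+/+. It was followed by pi-Tfcp2l1.1, with 43.6 and 46.3 CPM in Exd2∆, against 35.4 and 35.7 CPM in Exd2+/+, and pi-Smcr8.3, with 42.5 and 46.4 CPM in Exd2∆, against 33.8 and 35.4 CPM in Exd2+/+. Then came pi-Tef.1 and pi-Fam168b.1, the second with 36.7 and 41.7 CPM in Exd2∆, against 31.8 and 26.4 CPM in Exd2+/+. Of these 5, pi-Tef.1 alone was lower in Exd2∆, and in the others both Exd2∆ libraries lay above both Exd2+/+ libraries.

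In long RNA, not scaled to length, the lowest loci after pi-Fbxo41.2 in Exd2+/+ were pi-Shank3.2, with 173 and 189 CPM in Exd2∆, against 172 and 166 CPM in Exd2+/+, pi-Rcan3.1, with 232 and 159 CPM in Exd2∆, against 203 and 206 CPM in Exd2+/+, pi-Exog.2, with 365 and 313 CPM in Exd2∆, against 289.7 and 311 CPM in Exd2+/+, and pi-Snx30.1, with 399 and 407 CPM in Exd2∆, against 408 and 345 CPM in Exd2+/+. The highest after pi-Lpp.1 were pi-Ankrd11.1, with 5788 and 6166 CPM in Exd2∆, against 5784 and 5945 CPM in Exd2+/+, over a gene for a chromatin regulator, and pi-Nsd1.1, with 5372 and 5209 CPM in Exd2∆, against 5122 and 4881 CPM in Exd2+/+. pi-Rplp1.1, with 4619.8 and 3657 CPM in Exd2∆, against 3279.7 and 3577 CPM in Exd2+/+, was among the 5 highest although it is the shortest. Just outside the threshold, small RNA stood at 22.5 and 25.3 CPM in Exd2∆, against 56.1 and 51.9 CPM in Exd2+/+, at pi-Cramp1l.1, and at 22.3 and 24.6 CPM in Exd2∆, against 56.7 and 53.0 CPM in Exd2+/+, at pi-Fth1.1. pi-D10Wsu102e.2 had 69.5 and 65.1 CPM in Exd2∆, against 55.5 and 53.4 CPM in Exd2+/+.

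**Figure D1:**
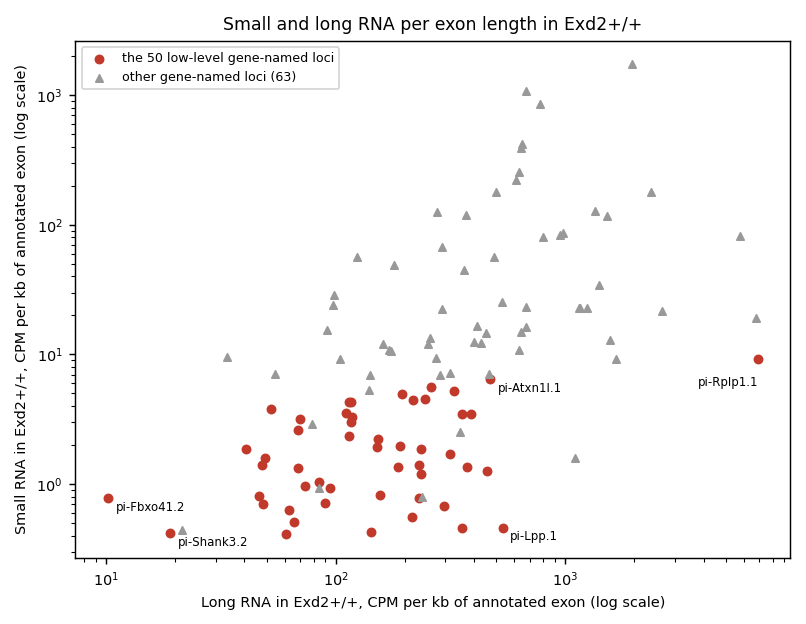
Small RNA against long RNA in Exd2+/+, both as mean CPM of 2 libraries per kb of annotated exon (log axes), for the 50 low-level loci (red circles) and the 63 other gene-named loci with a matched gene (grey triangles). pi-Rplp1.1 lies far right at 6898 CPM per kb of long RNA, and pi-Fbxo41.2 far left at 10.2.

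In small RNA the fit called 15 of the 50 loci higher in Exd2∆ and 9 lower, leaving 26 without a call. Over all 208 loci 33.2% were called higher and 31.7% lower (64.9% in all), and since the rule used the Exd2+/+ libraries of this contrast and loci with large changes had been left out, nothing is read from the members' counts. The genotypes did not overlap at 15 loci where Exd2∆ was higher and 17 where it was lower (39.9% and 39.4% of all loci). DESeq2 called 11 higher and 4 lower (31.5% and 32.0% of the loci it tested). The differences at the 50 were small, but loci with large changes had been left out by name, so nothing is read from the size. Among those left out, pi-Hjurp.2 had a log2 fold change of 1.86 and pi-Lsmd1.1 one of -1.68. Of the 50, the loci called higher lay between 0.34 and 0.65 on the log2 scale, and 1 locus, pi-March08.1, was lower by 2-fold or more. The median log2 fold change of the 50 was 0.04, the same as over all 208 loci (0.04), and the median of their absolute values 0.22, against 0.34. Leaving out a library moved these counts. There were 4 higher calls without Exd2∆ replicate 2 and 4 without Exd2+/+ replicate 2, and 4 lower calls without either Exd2∆ replicate. Exd2∆ replicate 2 was the higher of the 2 Exd2∆ libraries at 32 of the 50 loci. Of the 24 called loci, 5 were called in each of the fits that left out 1 library: pi-March08.1, pi-Rab11fip4.2, pi-Ndst1.1, pi-Hinfp.1 and pi-Exog.2. DESeq2 did not call the last of these, pi-Exog.2. Of the other called loci it did not call pi-D730040F13Rik.1, pi-Zfp866.1, pi-Eya3.1, pi-Fbxo41.2, pi-Foxo3.2, pi-Zbtb49.1 and pi-Ankrd11.1. It gave pi-Rplp1.1 no adjusted p.

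**Figure D2:**
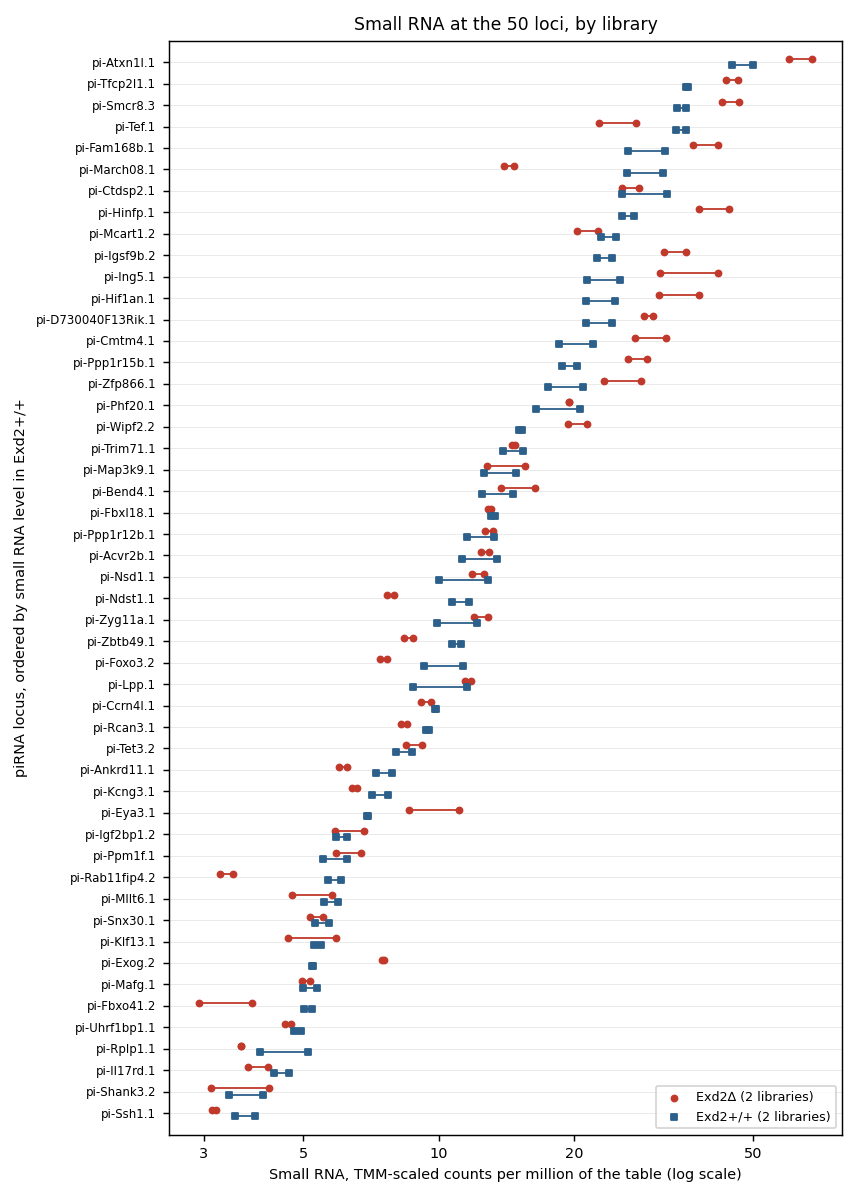
Small RNA at each of the 50 loci in TMM-scaled CPM (log axis), ordered by level in Exd2+/+, with each Exd2∆ library as a red circle above each Exd2+/+ library as a blue square, and lines joining the 2 libraries of a genotype. The genotypes separate at pi-March08.1 (lower in Exd2∆) and pi-Hinfp.1 (higher), and interleave at pi-Map3k9.1.

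The 5 host genes of ubiquitin ligases held the largest difference and no locus called higher, with 2 called lower. (Loci were grouped by what their host genes are known to encode after their values were seen. Over all 208 loci 33.2% were called higher and 31.7% lower, and nothing is read from the counts by role given here and below.) March8 encodes a membrane-bound ubiquitin ligase that moves surface receptors into lysosomes. At pi-March08.1 (chromosome 6, 116338021 to 116409533, plus strand) small RNA stood at 14.0 and 14.7 CPM in Exd2∆, against 31.5 and 26.1 CPM in Exd2+/+. Both Exd2∆ libraries lay far below both Exd2+/+ libraries, at a log2 fold change of -1.0 ± 0.14. pi-Fbxo41.2, over the gene for an F-box protein of neurons (chromosome 6, 85469577 to 85502886, minus strand), had 3.84 and 2.94 CPM in Exd2∆, against 5.23 and 5.01 CPM in Exd2+/+. Its log2 fold change was -0.61 ± 0.13, and it is the locus with the least long RNA of the 50. pi-Trim71.1 (0.00), over a stem cell gene for a ligase that also binds RNA, pi-Fbxl18.1 (-0.03) and pi-Zyg11a.1 (0.17) were not called.

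Host genes for proteins of trafficking and the cytoskeleton gave 1 locus called lower and 2 called higher of 6. Rab11fip4 encodes an effector of Rab11, a small GTPase of recycling endosomes. pi-Rab11fip4.2 (chromosome 11, 79591211 to 79694013, plus strand) had 3.48 and 3.27 CPM in Exd2∆, against 6.07 and 5.68 CPM in Exd2+/+. The 2 libraries of a genotype lay close together here and the genotypes far apart, with a log2 fold change of -0.80 ± 0.10. pi-Wipf2.2 (0.42 ± 0.12), over a gene for a partner of the actin regulator WASP, and pi-Smcr8.3 (0.36 ± 0.13), over a gene whose product works with C9ORF72 in autophagy, were called higher. pi-Lpp.1, pi-Snx30.1, over a sorting nexin gene, and pi-Uhrf1bp1.1 were not called, at 0.20, -0.04 and -0.07.

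The 9 loci over genes of transcription factors and their partners were split, with 4 called higher and 3 lower. Hinfp encodes a zinc finger factor that drives histone H4 genes at the start of S phase. pi-Hinfp.1 (chromosome 9, 44292438 to 44305634, minus strand) had 37.8 and 44.1 CPM in Exd2∆, against 27.1 and 25.6 CPM in Exd2+/+, with a log2 fold change of 0.64 ± 0.13. The other 3 called higher were pi-Atxn1l.1 (0.43 ± 0.13), over a gene whose product works with the repressor Capicua, pi-Zfp866.1 (0.43 ± 0.15) and pi-Tfcp2l1.1 (0.34 ± 0.13), over a gene of the pluripotency network. The genotypes did not overlap at any of these 4. Tef encodes a bZIP factor under circadian control, and pi-Tef.1 had 22.7 and 27.4 CPM in Exd2∆, against 33.6 and 35.5 CPM in Exd2+/+. Its log2 fold change was -0.46 ± 0.14. pi-Foxo3.2, over the gene for a forkhead factor downstream of insulin signalling, had 7.68 and 7.41 CPM in Exd2∆, against 11.3 and 9.26 CPM in Exd2+/+, at -0.44 ± 0.13. pi-Zbtb49.1, over a zinc finger gene of the BTB family, had 8.36 and 8.75 CPM in Exd2∆, against 10.7 and 11.2 CPM in Exd2+/+, at -0.35 ± 0.11. Both Exd2∆ libraries lay below both Exd2+/+ libraries at these 3 loci. pi-Klf13.1 (-0.04) and pi-Mafg.1 (-0.03), which lies over a gene for a small Maf protein, were not called.

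Of 6 loci over chromatin genes, 1 was called higher and 1 lower. Ing5 encodes a reader of methylated histone H3 in histone acetyltransferase complexes. pi-Ing5.1 (chromosome 1, 93803976 to 93822102, plus strand) had 31.0 and 41.7 CPM in Exd2∆, against 25.3 and 21.3 CPM in Exd2+/+, the highest log2 fold change of the 50 at 0.65 ± 0.17. The Exd2∆ libraries differed from each other more at this locus in small RNA than at any other of the 50. pi-Ankrd11.1 was called lower, at -0.30 ± 0.11. pi-Nsd1.1 (0.10), over a gene for a methyltransferase of histone H3, pi-Tet3.2 (0.08), over a gene for an enzyme that oxidises methylcytosine, pi-Phf20.1 (0.08) and pi-Mllt6.1 (-0.14) were not called.

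Among the 8 host genes of phosphatases, kinases and their regulators, 2 loci were called higher and none lower. Ppp1r15b encodes the constitutive partner of the phosphatase that acts on the translation factor eIF2. pi-Ppp1r15b.1 had 26.3 and 29.1 CPM in Exd2∆, against 20.3 and 18.8 CPM in Exd2+/+, with a log2 fold change of 0.51 ± 0.13. pi-Eya3.1, over the gene for a tyrosine phosphatase that also coactivates transcription, had 8.58 and 11 CPM in Exd2∆, against 6.94 and 6.96 CPM in Exd2+/+. All Exd2∆ values exceeded the Exd2+/+ values at both loci, and pi-Eya3.1 stood at 0.51 ± 0.14. The 6 that were not called ran from pi-Ssh1.1 (-0.24), over a gene for a cofilin phosphatase, through pi-Rcan3.1 (-0.17), pi-Ctdsp2.1 (-0.11), pi-Map3k9.1 (0.04) and pi-Ppp1r12b.1 (0.06) to pi-Ppm1f.1 (0.10).

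Loci over genes of the cell surface and synapse gave 2 called higher of 6. Cmtm4 encodes a membrane protein of the MARVEL family, and pi-Cmtm4.1 had 27.3 and 32.0 CPM in Exd2∆, against 22 and 18.5 CPM in Exd2+/+, a log2 fold change of 0.55 ± 0.14. pi-Igsf9b.2, over the gene for an adhesion protein of inhibitory synapses, had 35.4 and 31.6 CPM in Exd2∆, against 22.5 and 24.3 CPM in Exd2+/+, a log2 fold change of 0.52 ± 0.13. In both the genotypes were separate. pi-Il17rd.1 (-0.17), pi-Acvr2b.1 (0.04), over an activin receptor gene, pi-Kcng3.1 (-0.19), over the gene for a potassium channel subunit, and pi-Shank3.2 (-0.03) were not called.

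Of 4 loci over genes for mitochondrial proteins and other enzymes, 2 were called higher and 1 lower. Exog encodes a mitochondrial nuclease, and pi-Exog.2 (chromosome 9, 119444964 to 119465504, plus strand) had 7.47 and 7.55 CPM in Exd2∆, against 5.23 and 5.25 CPM in Exd2+/+, a log2 fold change of 0.52 ± 0.10. The libraries of a genotype nearly coincide at this locus. Its neighbour pi-Acvr2b.1 ends 3.05 kb upstream on the same strand and had 13 and 12.4 CPM in Exd2∆, against 13.5 and 11.2 CPM in Exd2+/+, where the genotypes interleave. pi-Hif1an.1, over the gene for the asparagine hydroxylase that inhibits HIF1, had 30.8 and 37.8 CPM in Exd2∆, against 24.7 and 21.3 CPM in Exd2+/+, a log2 fold change of 0.58 ± 0.15. pi-Ndst1.1, over the gene for an enzyme that sulfates heparan sulfate, had 7.97 and 7.66 CPM in Exd2∆, against 11.7 and 10.7 CPM in Exd2+/+, a log2 fold change of -0.52 ± 0.11. pi-Mcart1.2, over the gene for the carrier of NAD into mitochondria, was not called (-0.15).

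Of the 3 loci grouped under RNA and translation, pi-Rplp1.1 was called lower, at 3.63 and 3.63 CPM in Exd2∆, against 4.01 and 5.12 CPM in Exd2+/+. Its log2 fold change was -0.34 ± 0.13. Without Exd2+/+ replicate 2 its value was -0.14. Ribosomal protein genes have many processed copies in the genome. No count of pi-Rplp1.1 was whole, but this is not particular to it. Among all the chosen loci, 42 had no whole count in small RNA and 39 none in long RNA. Whether the authors' counting split reads between copies was not tested. pi-Igf2bp1.2 (0.06), over a gene for a protein that binds mRNA of fetal growth genes, and pi-Ccrn4l.1 (-0.07) were not called. Of the 3 loci given no role, pi-Fam168b.1 (0.43 ± 0.14) and pi-D730040F13Rik.1 (0.37 ± 0.13) were called higher, the second of them in no fit that left out 1 library, and pi-Bend4.1 (0.15) was not. The 26 loci that were not called ran from -0.24 to 0.20 with standard errors of 0.10 to 0.15.

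Calls were also counted by level, with nothing read from the counts, since the level is the value that chose the loci. This level is in CPM not scaled by TMM. Over all 208 loci 33.2% were called higher and 31.7% lower. In the 25 loci with the higher Exd2+/+ levels (11.2 to 46.6 CPM), 13 were called higher and 2 lower, with a median log2 fold change of 0.34. In the 25 with the lower levels (3.64 to 11 CPM), 2 were called higher and 7 lower, with a median of -0.07. Spearman's rho between the level and the log2 fold change was 0.43 and Pearson's r 0.36 (n = 50 loci, the level on the log2 scale). Level and fold change share the Exd2+/+ libraries, and this split was chosen after the values were seen, so it is a description.

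**Figure D3:**
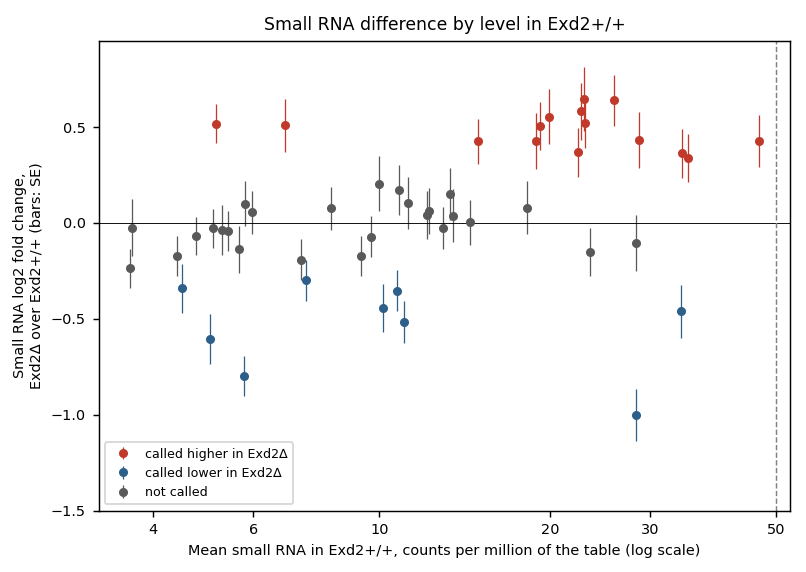
Log2 fold change of small RNA (Exd2∆ over Exd2+/+, bars ± SE) against the mean Exd2+/+ small RNA level (log axis), for the 50 loci. The level is in CPM not scaled by TMM, with the threshold of 50 as a dashed line. Of the 15 loci called higher (red), 13 lie in the upper 25 by level, and 7 of the 9 called lower (blue) lie in the lower 25. Over all 208 loci 33.2% were called higher and 31.7% lower. The level chose the loci and the split was made after the values were seen, so nothing is read from these counts.

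In long RNA, whose values the threshold did not use, 0 of the 50 loci were called in either direction (edgeR quasi-likelihood, adjusted p below 0.05 over 208 loci; lowest adjusted p = 0.0862). Over all 208 loci 7.69% were called, 6.73% higher and 0.962% lower, and 1 called locus below the threshold, pi-Luzp1.1, had been left out by name. Of the 50, 8 were higher and 1 lower at an unadjusted p under 0.05, which 29.3% of all loci reached. DESeq2 called 3 higher and 0 lower (13.8% and 4.1% of the loci it tested). The median log2 fold change was 0.07, against 0.01 over all 208 loci, and 37 of the 50 values were positive, against 112 of 208. The 64 other gene-named loci had the same median, 0.07, with 46 values positive. With scaling to the library total the median was 0.01 for the 50 loci and -0.05 over all 208. By role, the value was positive at 6 of 6 loci over genes of trafficking and the cytoskeleton and 4 of 4 over genes of mitochondria and other enzymes. It was positive at 7 of 9 over those of transcription factors, 5 of 6 over chromatin genes and 6 of 8 over those of phosphatases and kinases. The count was 4 of 6 for the cell surface, 2 of 5 for ubiquitin ligases, 1 of 3 for RNA and translation and 2 of 3 for the loci given no role. Both Exd2∆ libraries lay above both Exd2+/+ libraries at 24 of the 50 loci, against 32.2% of all 208 loci, and below both at 3, against 30.3%. Of the 64 other gene-named loci, 24 (37.5%) lay above and 12 below in this way. At 22 of the 50 loci the log2 fold change was within 0.1 of 0. Without Exd2∆ replicate 1 the fit called 9 higher and 5 lower and without Exd2∆ replicate 2 it called 15 higher and 2 lower, with the lone Exd2∆ library assumed to vary like the Exd2+/+ pair; without either Exd2+/+ replicate it called 0.

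The loci nearest to a call were higher in Exd2∆. pi-Atxn1l.1 (chromosome 8, 109726649 to 109737749, minus strand) had 4641 and 4991 CPM in Exd2∆, against 3115 and 3791 CPM in Exd2+/+. Both Exd2∆ libraries exceeded both Exd2+/+ libraries, with a log2 fold change of 0.48 ± 0.12 and an adjusted p of 0.0862 by edgeR quasi-likelihood. It was called at that threshold with DESeq2, with the replicate block and without either Exd2∆ replicate (adjusted p over all alternatives 5.56e-07 to 0.674). The lowest adjusted p-values come from fits with 1 Exd2∆ library, which is then assumed to vary like the Exd2+/+ pair, and are no support. pi-Lpp.1 (chromosome 16, 24393445 to 24992575, plus strand) was the most abundant of the 50 in long RNA, with 16538 and 14086 CPM in Exd2∆, against 11805 and 11710.5 CPM in Exd2+/+. Its Exd2+/+ libraries nearly coincide and both Exd2∆ libraries lie above them, at a log2 fold change of 0.38 ± 0.10 (adjusted p = 0.0882, edgeR quasi-likelihood, 7.65e-09 to 0.674 over the alternatives). pi-Uhrf1bp1.1 (chromosome 17, 27856506 to 27900040, plus strand), over a gene named for binding of its product to UHRF1, had 3115 and 2302 CPM in Exd2∆, against 1796 and 1928 CPM in Exd2+/+. It had the largest difference of the 50, 0.54 ± 0.16 (adjusted p = 0.117, edgeR quasi-likelihood, 3.17e-13 to 0.674 over the alternatives), and its Exd2∆ libraries lay far apart, with a log2 fold change of 0.31 without Exd2∆ replicate 1. DESeq2 called these 3 loci (adjusted p = 0.00659, 0.0208 and 0.0153).

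Several other long RNA values lay above 0.2 without a call in the edgeR quasi-likelihood fit with no term but genotype. pi-Ppp1r15b.1 had 3222 and 2273 CPM in Exd2∆, against 2141 and 1834 CPM in Exd2+/+, at 0.47 ± 0.19 (adjusted p = 0.170). pi-Ctdsp2.1, over the gene for a phosphatase of the RNA polymerase II tail, had 2715 and 2078 CPM in Exd2∆, against 1827 and 1781 CPM in Exd2+/+, at 0.41 ± 0.14 (adjusted p = 0.139). In both, Exd2∆ replicate 1 stood well above Exd2∆ replicate 2. With the replicate block both were called (adjusted p = 0.00497 and 0.0174, edgeR quasi-likelihood). pi-Il17rd.1, over the gene for an inhibitor of fibroblast growth factor signalling, had 807 and 799 CPM in Exd2∆, against 648 and 674 CPM in Exd2+/+, at 0.28 ± 0.09 (adjusted p = 0.117). pi-Rab11fip4.2 had 1359 and 1256 CPM in Exd2∆, against 1067 and 1086 CPM in Exd2+/+, at 0.28 ± 0.09 (adjusted p = 0.117). At these 2 loci the Exd2∆ libraries lay close together. pi-Hif1an.1 (0.34), pi-Ppm1f.1 (0.32), pi-Ing5.1 (0.27) and pi-Rplp1.1 (0.27) had adjusted p-values of 0.168 to 0.388 by edgeR quasi-likelihood.

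Values below 0 were fewer. At pi-D730040F13Rik.1 (chromosome 4, 56867025 to 56947483, minus strand) long RNA stood at 847 and 982 CPM in Exd2∆, against 1207 and 1110.2 CPM in Exd2+/+, a log2 fold change of -0.34 ± 0.11 (adjusted p = 0.121, edgeR quasi-likelihood). The genotypes did not overlap here, nor at pi-Kcng3.1 (-0.24) and pi-Zfp866.1 (-0.19), which had adjusted p-values of 0.176 and 0.309 by edgeR quasi-likelihood. pi-Fbxo41.2, with 66.5 and 45.0 CPM in Exd2∆, against 67.7 and 65.7 CPM in Exd2+/+, had the widest error (-0.31 ± 0.23), and its Exd2∆ libraries differed more than those of any other of the 50 loci. In long RNA the median absolute log2 ratio between the 2 libraries was 0.15 for Exd2∆ and 0.06 for Exd2+/+. In small RNA it was 0.11 for Exd2∆ and 0.12 for Exd2+/+.

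**Figure D4:**
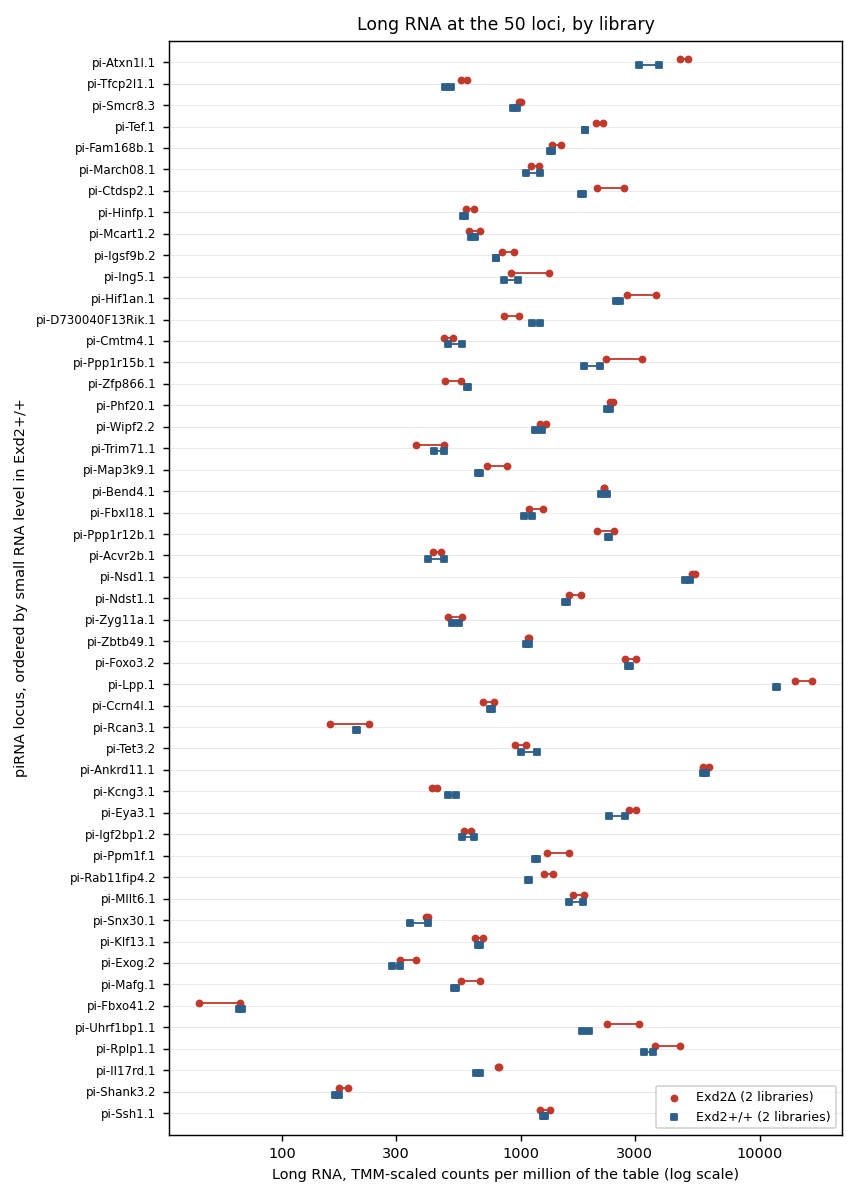
Long RNA at the same 50 loci in TMM-scaled CPM (log axis), in the order of the small RNA levels, with each Exd2∆ library as a red circle above each Exd2+/+ library as a blue square. Both Exd2∆ libraries lie above both Exd2+/+ libraries at 24 loci, among them pi-Atxn1l.1, pi-Lpp.1 and pi-Uhrf1bp1.1, and below both at 3. Over all 208 loci the shares were 32.2% and 30.3%, and of the 64 other gene-named loci 24 lay above and 12 below.

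Summed over the 50 loci, long RNA took 9.03% and 8.59% of the table in Exd2∆, against 8.03% and 8.11% in Exd2+/+. The mean share was 8.81% ± 0.314 (SD, n = 2) for Exd2∆ against 8.07% ± 0.0595 (SD, n = 2) for Exd2+/+, a difference of 0.740 percentage points (two-sided exact permutation p = 0.333, the smallest that 2 against 2 libraries allow). pi-Lpp.1 alone held 1.60% and 1.39% in Exd2∆, against 1.2% and 1.2% in Exd2+/+, and without it the difference was 0.442 percentage points. In small RNA the 50 loci took 0.0791% and 0.0911% in Exd2∆, against 0.0758% and 0.0698% in Exd2+/+, of tables in which all gene-named loci took 3.0% to 3.42%.

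The genotype difference was then compared between the assays in 1 fit of all 8 libraries. This fit gave each locus 1 spread for both assays and treated the 8 libraries as independent. The log2 fold change of small RNA differed from that of long RNA at 14 of the 50 loci, higher in small RNA at 5 and lower at 9 (interaction of assay and genotype, edgeR quasi-likelihood). Over all 208 loci 51.9% were called, 25.5% higher and 26.4% lower. This comparison reads the Exd2+/+ small RNA libraries too, so it is also a description. The lowest differences, small minus long, were -1.08 ± 0.14 at pi-Rab11fip4.2 and -1.03 ± 0.17 at pi-March08.1. At pi-Rab11fip4.2 small RNA was lower and long RNA, though not called, stood higher, and at pi-March08.1 small RNA was lower while long RNA stood at 0.03 ± 0.10. The others with a lower value in small RNA were pi-Tef.1 (-0.66), pi-Ndst1.1 (-0.64), pi-Rplp1.1 (-0.61), pi-Uhrf1bp1.1 (-0.61), pi-Foxo3.2 (-0.48), pi-Il17rd.1 (-0.45) and pi-Zbtb49.1 (-0.37). Higher in small RNA were pi-D730040F13Rik.1 (0.70), pi-Cmtm4.1 (0.65), pi-Zfp866.1 (0.62), pi-Hinfp.1 (0.56) and pi-Wipf2.2 (0.36). Small RNA by library was 28.6 and 29.9 CPM in Exd2∆, against 24.2 and 21.2 CPM in Exd2+/+ at pi-D730040F13Rik.1. It was 23.3 and 28.2 CPM in Exd2∆, against 20.9 and 17.5 CPM in Exd2+/+ at pi-Zfp866.1, and 19.3 and 21.4 CPM in Exd2∆, against 15.3 and 15.1 CPM in Exd2+/+ at pi-Wipf2.2. Of the 14, 12 were also called in small RNA. The exceptions were pi-Uhrf1bp1.1 and pi-Il17rd.1, where small RNA was not called and long RNA stood higher. The count was 6 and 7 without Exd2+/+ replicate 1 or 2 of long RNA, and 7 and 8 without Exd2∆ or Exd2+/+ replicate 2 of small RNA.

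The signs of the small and long RNA differences were mixed at these loci. Both log2 fold changes were positive at 19 loci and both negative at 5, small RNA alone was positive at 8 and long RNA alone at 18. Across the 50 loci Spearman's rho between them was 0.15 and Pearson's r 0.15 (n = 50 loci, measured in different libraries of the same groups). The 64 other gene-named loci had both positive at 21, both negative at 4, small RNA alone positive at 14 and long RNA alone at 25. The 94 band-named loci had both positive at 9, both negative at 27, small RNA alone positive at 38 and long RNA alone at 20. These are counts of signs, and no difference between them was tested.

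**Figure D5:**
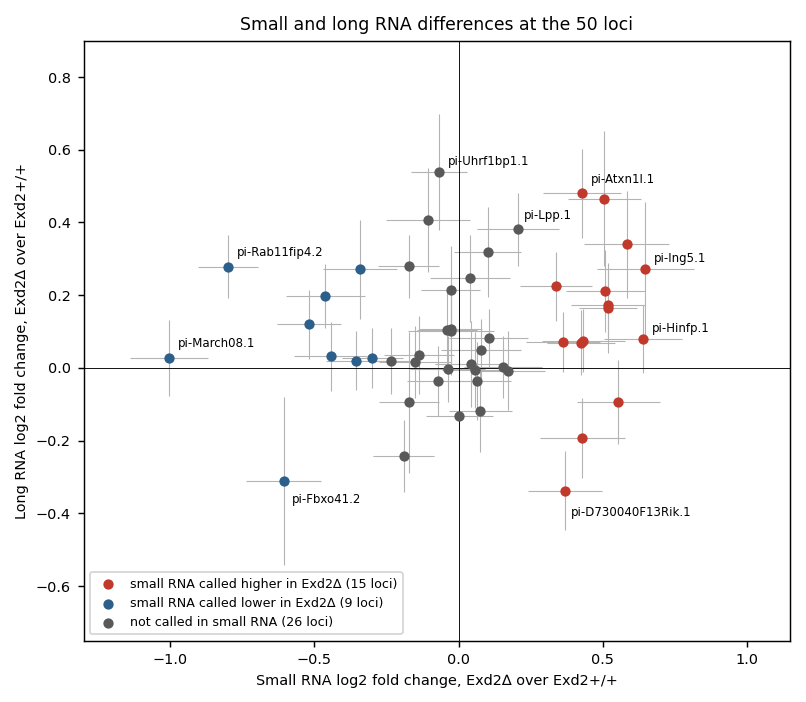
Log2 fold change (Exd2∆ over Exd2+/+, bars ± SE) of long RNA against that of small RNA at the 50 loci, coloured by the call in small RNA. The 15 loci called higher in small RNA (red) lie on both sides of 0 in long RNA, and of the 9 called lower (blue) pi-Fbxo41.2 alone lies below it.

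The authors' deposited table gave 15 of the 50 loci as higher and 8 as lower in small RNA, and 0 in long RNA (their adjusted p below 0.05, lowest 0.0707 in long RNA).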

How the data were processed

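The members and lists were chosen with earlier results of these data known, and roles of host genes were assigned after values were seen. The submitters' processing notes name cutadapt, STAR, edgeR and GRCm38. Not given in the sources used here is how reads were counted, over the span or the exons, by strand or with several alignments. The authors deposited estimated counts (expected counts that need not be whole) for 208 loci in each assay, beside their own log2 fold change and an adjusted p-value, as the file headers name them. Of the 50 loci, 39 had no whole count in long RNA (tolerance 0.001) and 42 none in small RNA; whether reads were split between alignments was not tested. Small RNA came from 10 µg and long RNA from 1 µg of total RNA, per the labels.

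Deposited counts were rounded and fitted over all loci, 1 fit for each assay, with edgeR 4.0.16 under R 4.3.3. The steps were filterByExpr (208 loci kept), TMM scaling, estimateDisp, glmQLFit, a glmQLFTest of genotype with no other term, and Benjamini-Hochberg adjustment. The legacy option of glmQLFit was chosen with earlier results of these data known. All 8 libraries entered the interaction fit, scaled by TMM separately for the assays. That fit gives each locus 1 dispersion for both assays. Fitted apart, the common dispersion was 0.0048 in small and 0.010 in long RNA. No term covers animals that the assays may share. The SE is the absolute log2 fold change over the square root of F. Alternatives were DESeq2 1.42.0, RLE and library-total scaling, no filter or at least 100 counts in 2 libraries, edgeR's default option, a replicate block, a threshold of 0.1 and leaving out each library. Fits were tested on simulated data. P-values rest on the spread between 2 libraries a genotype, which the fit moderates with the spread at the other loci. Counting errors cover counting only, and a change shared by all 208 loci would not be seen. Values per library were given for called loci (up to 8 a direction), extremes of level and fold change, and loci at the threshold, with a few others named beside them. Promoters on chromosome 18 were left out. The number of per-sample columns matched to no sample was 0.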

Additional observations from a re-analysis of the deposited data

How the results depend on the processing

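The number of called loci among the 50 depended on the library left out, and on the tool in part. In small RNA the 15 higher calls became 9 with the replicate number as a block and ranged from 4 to 12 when 1 library was left out. The 9 lower calls became 4 with DESeq2 and ranged from 4 to 7 with 1 library left out. In long RNA the 0 higher calls became 3 with DESeq2, 5 with the replicate block and 2 at an adjusted p below 0.1, and ranged from 0 to 15 with 1 library left out, while the 0 lower calls ranged from 0 to 5. Without Exd2+/+ replicate 1 or 2, 0 and 1 of the 50 loci had an unadjusted p under 0.05 in long RNA. The 14 interaction calls became 8 with edgeR's default option and 8 with the replicate block, and ranged from 6 to 18 with 1 library left out. The cause of these shifts was not tested. The labels do not pair the replicate numbers, and the deviations of same-numbered libraries from their group means correlated at 0.04 in small and 0.34 in long RNA across loci. No called log2 fold change of the 50 loci changed sign under an alternative run. With 1 library left out, the median log2 fold change of the 50 loci ranged from 0.068 to 0.099 in long RNA (0.073 with all) and from -0.025 without Exd2+/+ replicate 2 to 0.069 in small RNA (0.040 with all); library-total scaling gave 0.013 in long RNA. The difference of summed shares ranged from 0.00623 to 0.0182 percentage points in small RNA and from 0.518 to 0.962 in long RNA, the extremes being without Exd2∆ replicate 1 or 2. With the threshold at 25 CPM in place of 50 it was 0.00785 for small RNA and 0.545 for long RNA. Without pi-Lpp.1, a setting added after seeing the data, it was 0.442 in long RNA. Depth limits the loci with few counts, the lowest being 86.8 for small RNA and 62.1 for long RNA.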
